A study of Mus musculus with 16 samples.

Results

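Fxyd5, Dmpk, Dab2ip, Lrrc32, Zfpm1, Crybg1 and Ppm1e are 7 of the 48593 genes in the deposited count table, and all 7 are among the 16606 genes that passed the count filter and were tested. They were chosen by name because their levels had been seen to differ between a knockout of Crebbp and a homozygous point mutation of it, each compared with the wild type of its own cohort. The values of those comparisons therefore describe how the genes were picked and are given without a test. The heterozygous libraries were not used in the choice, and the genes were tested there. The wild type libraries of that test were used in the choice, so it is not independent of it. As listed here, 6 of the 7 had log2 differences of opposite sign, as 46.1% of all tested genes did, and since the choice rests on these values nothing is read from that count. Of the 6, Lrrc32 had a knockout difference near 0 whose sign changed with the libraries used. Ppm1e was higher in both mutants and differed only in size.

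The RNA came from germinal centre B cells of mouse spleen, sorted by surface B220, PNA binding and CD95 after intraperitoneal immunisation with sheep red blood cells, a T cell dependent antigen. The 16 libraries fall into 5 groups by title. In the knockout cohort, 3 libraries were Crebbp wild type (KO cohort WT) and 3 were homozygous Crebbp knockout (KO). In the knock-in cohort, 3 libraries were Crebbp wild type (RH cohort WT), 4 carried 1 copy of an arginine-to-histidine allele (RH HET) and 3 carried 2 copies (RH HOMO). The series title calls both alleles conditional and specific to germinal centre cells, but the Cre driver, the deleted part of Crebbp, the ages of the mice and whether wild types carried Cre are not given in the labels. Nothing states that the libraries of a group came from separate mice, and a p value here reflects only how far these libraries spread, which may in part be technical. The labels also give both 12 and 10 days between immunisation and collection, and 1 library titled as knock-in cohort wild type (RH cohort WT 1) carries a batch tag of the knockout cohort.

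Crebbp encodes an acetyltransferase that adds acetyl groups to histones at enhancers and promoters and so favours transcription. It is often mutated in lymphomas that arise from germinal centre B cells, either by truncation or by single amino acid changes in the acetyltransferase domain. A knockout removes the protein, while a point mutant can leave a protein that still binds its partners.

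The 7 genes have separate roles. Dmpk encodes a serine/threonine kinase known from myotonic dystrophy, Dab2ip a Ras GTPase activating protein that also serves as a scaffold in signalling from tumour necrosis factor receptors, and Ppm1e a protein phosphatase that acts on PAK and calmodulin-dependent kinases. Fxyd5 and Lrrc32 encode surface proteins: the first, dysadherin, is a small membrane protein of the family that modulates the sodium pump, and the second, GARP, holds latent TGF-beta on the cell surface. Zfpm1 encodes FOG1, a cofactor of GATA transcription factors in red cell and platelet precursors. Crybg1, also called Aim1, encodes a protein with beta-gamma crystallin domains that associates with actin.

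The smallest library, RH HET 4, held 41362856 counts and the largest, KO cohort WT 2, held 93040297. A principal component analysis put 2 libraries away from the rest. RH HOMO 2 scored 77.1 and RH cohort WT 1 scored 50.7 on the leading component, where the remaining 14 ranged from -40.7 to 24.3. On the same component the 6 knockout cohort libraries lay between -40.7 and -25.6. All 10 libraries titled as knock-in cohort lay at -5.78 or above, so it also separated the cohorts. Several results that use RH HOMO 2 or RH cohort WT 1 are also given without RH HOMO 2 or without both. Where no such value is given, how far the result depends on them is not shown. The mitochondrial share of counts was 7.34%, 7.15% and 4.72% in RH cohort WT and 3.43% to 5.84% in the other 13 libraries. The 12 germinal centre B cell markers summed to between 7970 and 9240 CPM (read counts relative to the TMM-normalised library total) in every library, and none was at 0. Crebbp mRNA itself had a log2 difference of -0.14 in KO, and since the deleted part is not known this level says nothing about the labels or the protein.

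Promoter sequence was looked at because Crebbp acts at regulatory DNA and is recruited by the factor that binds the cyclic AMP response element. RefSeq windows on GRCm38.p6, from 250 bases before to 50 bases after an annotated start site, were matched for 6 of the 7 genes, all but Lrrc32. The 4 genes with 1 window each are printed below from 5′ to 3′ on the gene's own strand, and capitals mark each match to the GC box GGGCGG on either strand. The windows lie at chr7:19083608-19083907 on the plus strand for Dmpk, chr11:87358945-87359244 on the minus strand for Ppm1e, chr7:31042282-31042581 on the minus strand for Fxyd5 and chr8:122281891-122282190 on the plus strand for Zfpm1.
Dmpk: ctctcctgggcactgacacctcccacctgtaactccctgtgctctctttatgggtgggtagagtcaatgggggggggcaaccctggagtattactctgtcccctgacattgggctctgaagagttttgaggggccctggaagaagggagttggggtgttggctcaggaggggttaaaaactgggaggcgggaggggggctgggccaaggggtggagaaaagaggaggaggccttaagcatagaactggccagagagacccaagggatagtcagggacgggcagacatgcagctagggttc
Ppm1e: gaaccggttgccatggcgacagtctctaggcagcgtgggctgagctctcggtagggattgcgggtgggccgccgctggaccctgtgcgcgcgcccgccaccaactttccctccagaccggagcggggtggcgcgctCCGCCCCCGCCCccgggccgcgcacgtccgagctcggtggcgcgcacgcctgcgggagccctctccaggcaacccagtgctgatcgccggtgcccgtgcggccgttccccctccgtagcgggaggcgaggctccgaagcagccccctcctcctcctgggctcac
Fxyd5: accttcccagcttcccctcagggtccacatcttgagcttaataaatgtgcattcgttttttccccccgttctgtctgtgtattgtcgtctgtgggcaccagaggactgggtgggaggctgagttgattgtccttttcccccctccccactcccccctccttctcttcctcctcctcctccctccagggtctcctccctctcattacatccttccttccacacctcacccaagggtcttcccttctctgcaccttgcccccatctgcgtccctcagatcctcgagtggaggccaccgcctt
Zfpm1: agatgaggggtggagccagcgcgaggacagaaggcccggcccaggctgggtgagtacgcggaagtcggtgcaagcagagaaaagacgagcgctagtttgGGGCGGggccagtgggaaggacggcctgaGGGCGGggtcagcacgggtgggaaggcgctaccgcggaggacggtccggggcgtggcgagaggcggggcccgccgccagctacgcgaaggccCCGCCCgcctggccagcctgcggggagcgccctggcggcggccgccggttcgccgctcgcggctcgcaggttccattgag
The Zfpm1 window held 3 GC boxes and the Ppm1e window 2, and both were GC-rich at 73.7% and 74.3%, against a median of 52.7% over all 32841 windows of the table. The Dmpk and Fxyd5 windows held no GC box and had a GC content of 58.3% and 57.3%. A GC box was found in 35.7% of all windows. The full cyclic AMP response element TGACGTCA occurs in 1.79% of all windows, its half-site TGACG, which is also contained in the full element, in 20.8%, the TATA box TATAAA in 13.6% and the E-box CACGTG in 7.15%, on either strand. None of these 4 motifs was found in any of the 11 windows of the 6 genes, which include 4 alternative starts of Dab2ip and 3 of Crybg1. The GC boxes of the 4 Dab2ip windows numbered 0, 4, 3 and 1, and those of Crybg1 were all in 1 window, which held 3. Of the 3 genes that were higher in KO and lower in RH HOMO, Dmpk lacked the box and Zfpm1 and Dab2ip had it.

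**Figure D1:**
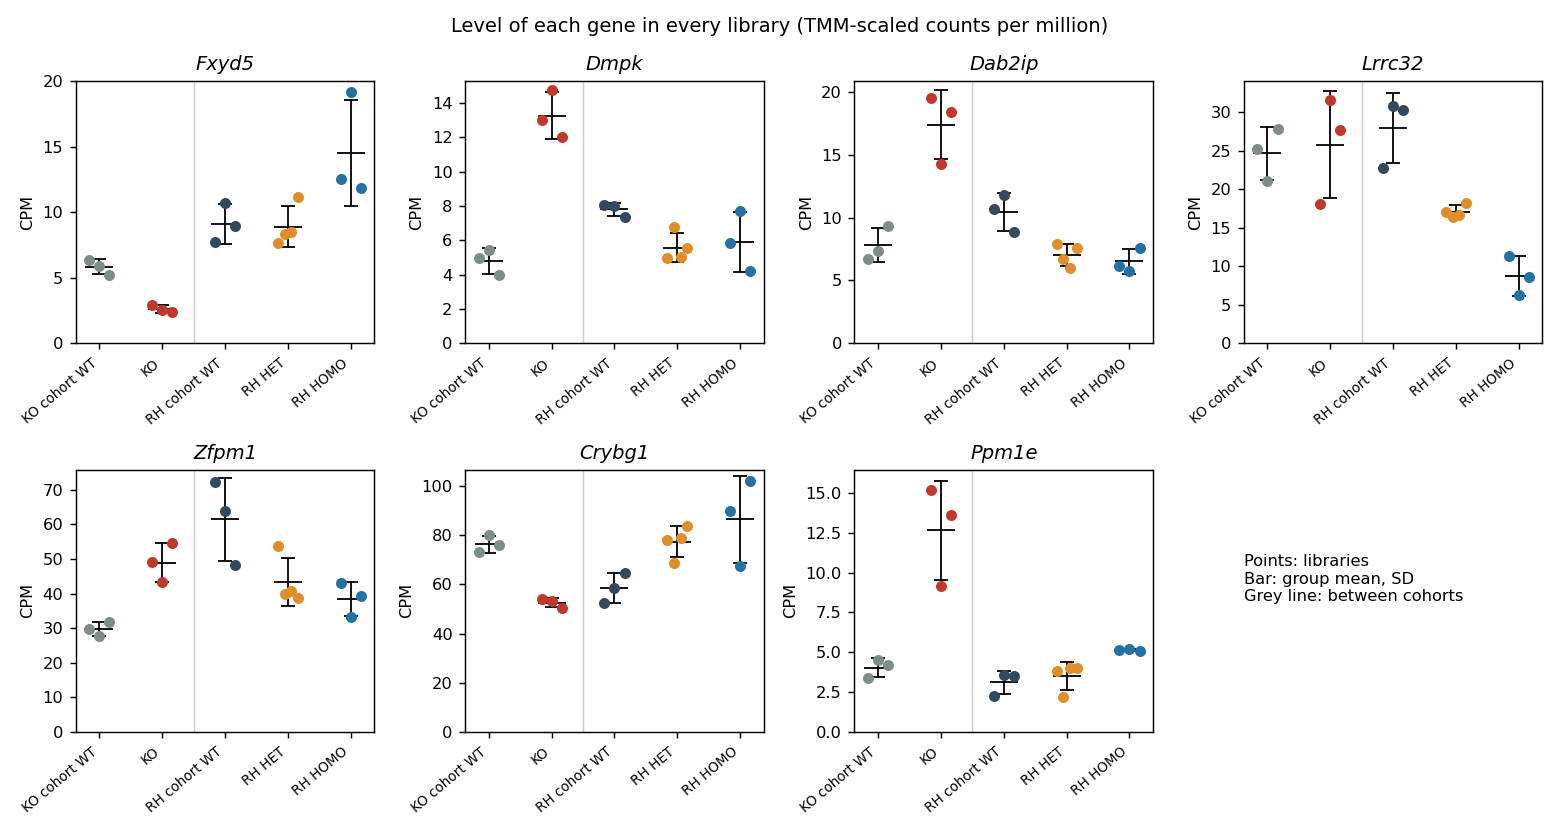
Level of each of the 7 genes in every library, in CPM, with the axis starting at 0. Points are libraries, bars the group mean and SD, and the grey line separates the knockout cohort (left) from the knock-in cohort. Dmpk, Dab2ip and Ppm1e are high in the 3 KO libraries, Lrrc32 steps down from RH cohort WT through RH HET to RH HOMO, and the 2 wild type groups of Zfpm1 lie apart.

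Dmpk (chr7:19083849-19093821, plus strand, GRCm38) was counted at 4.97, 5.43 and 3.98 CPM in KO cohort WT and at 13.03, 14.7 and 12.0 CPM in KO. The KO libraries were the highest of all 16, with no overlap with their wild type, and the log2 difference was 1.46 ± 0.20 (SE). In the knock-in cohort Dmpk was at 8.07, 7.99 and 7.36 CPM in wild type, at 4.98, 6.76, 5.06 and 5.53 CPM in RH HET and at 5.83, 7.70 and 4.20 CPM in RH HOMO. RH HOMO 2 lay inside the wild type range, so these groups overlapped, and the log2 difference was -0.40 ± 0.19. Leaving out RH HOMO 2 gave -0.64, leaving out RH HOMO 3, the lowest library, gave -0.22, and all wild types as 1 control group gave -0.09. The knockout difference of Dmpk was thus the larger of the 2 and the one with separate groups. Group means ran from 13.3 ± 1.38 CPM in KO (SD, n = 3) to 4.79 ± 0.744 CPM in KO cohort WT (n = 3). Below KO, each group in that order overlapped the next: RH cohort WT at 7.81 ± 0.393, RH HOMO at 5.91 ± 1.75 and RH HET at 5.58 ± 0.822 CPM.

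Dab2ip (chr2:35558266-35730994, plus strand) also had its highest levels in KO. It was at 6.71, 7.36 and 9.31 CPM in KO cohort WT and at 19.5, 14.3 and 18.4 CPM in KO, where all 3 libraries lay above every other library, for a log2 difference of 1.16 ± 0.17. In the knock-in cohort the wild type libraries were at 10.6, 11.8 and 8.82 CPM, RH HET at 7.90, 6.71, 5.99 and 7.61 CPM, and RH HOMO at 6.18, 5.75 and 7.62 CPM. Both mutant groups lay wholly below their wild type and overlapped each other, and RH HOMO differed from wild type by -0.68 ± 0.17, or by -0.58 without RH HOMO 2 and RH cohort WT 1. The group means were 17.4 ± 2.74 CPM in KO, 10.4 ± 1.51 in RH cohort WT, 7.79 ± 1.35 in KO cohort WT, 7.05 ± 0.869 in RH HET and 6.52 ± 0.974 in RH HOMO. KO alone stood clear of its neighbour in that order. An antisense transcript, Gm13446, shares 347 exon bases with Dab2ip (4.15% of its exon length), and without strand information its reads cannot be told apart.

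Ppm1e (chr11:87226906-87359023, minus strand) did not have opposite signs. It was at 3.40, 4.55 and 4.19 CPM in KO cohort WT and at 15.2, 9.17 and 13.6 CPM in KO, a log2 difference of 1.64 ± 0.24, the largest knockout difference of the 7 genes. In RH cohort WT it was at 2.28, 3.55 and 3.51 CPM, in RH HET at 3.81, 2.18, 4.004 and 4.03 CPM, and in RH HOMO at 5.16, 5.19 and 5.08 CPM. The 3 RH HOMO libraries were close to each other, with an SD of 0.0566 CPM, and lay above every wild type and RH HET library and below every KO library. Their log2 difference from wild type was 0.72 ± 0.24, in the same direction as in KO, and 0.54 without RH HOMO 2 and RH cohort WT 1. Ppm1e was also the gene with the fewest reads in a library, 87 in RH cohort WT 1, and the spread between replicates was the largest of the 7 at 0.327 on the log2 scale.

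Fxyd5 (chr7:31032722-31042481, minus strand), a surface protein gene, was lower in KO and higher in RH HOMO. It was at 6.36, 5.94 and 5.22 CPM in KO cohort WT and at 2.97, 2.57 and 2.37 CPM in KO, a log2 difference of -1.15 ± 0.20. The 3 KO libraries were the lowest of all 16. In the knock-in cohort Fxyd5 was at 7.70, 10.7 and 8.96 CPM in wild type, at 7.64, 8.35, 8.49 and 11.2 CPM in RH HET and at 12.5, 19.2 and 11.8 CPM in RH HOMO. RH HOMO lay above both other groups, with a log2 difference from wild type of 0.67 ± 0.19, and RH HET covered the wild type range. The highest value came from RH HOMO 2, which stands apart over all genes: without it the difference was 0.41, and without it and RH cohort WT 1 it was 0.31. The ordered group means were 14.5 ± 4.06 CPM in RH HOMO, 9.14 ± 1.53 in RH cohort WT, 8.91 ± 1.56 in RH HET, 5.84 ± 0.577 in KO cohort WT and 2.64 ± 0.305 in KO, and only RH cohort WT and RH HET overlapped.

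Lrrc32 (chr7:98489283-98502181, plus strand), the other surface protein gene, stepped down with each copy of the knock-in allele and lay near wild type in KO. Its levels were 25.2, 21.002 and 27.8 CPM in KO cohort WT and 18.1, 31.5 and 27.7 CPM in KO, where the libraries fell on both sides of the wild type range. The log2 difference was 0.06 ± 0.20 and changed sign, to -0.10, when KO 2 was left out and to -0.03 when KO cohort WT 2 was. In the knock-in cohort it was at 22.7, 30.7 and 30.3 CPM in wild type, at 17.0, 16.4, 16.7 and 18.3 CPM in RH HET and at 11.4, 6.23 and 8.57 CPM in RH HOMO. The 3 groups did not overlap, with RH HET between the others, and the log2 difference of RH HOMO from wild type was -1.68 ± 0.21 and from RH HET -0.97 ± 0.20. Without RH HOMO 2 and RH cohort WT 1 the difference from wild type was -1.61. The group means were 27.9 ± 4.49, 17.1 ± 0.814 and 8.72 ± 2.57 CPM in that order of genotypes.

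Zfpm1 (chr8:122282141-122337251, plus strand), the transcriptional cofactor, had wild type groups that lay apart. It was at 29.7, 27.6 and 31.9 CPM in KO cohort WT and at 49.0, 43.4 and 54.5 CPM in KO, a log2 difference of 0.72 ± 0.15 with no overlap. In RH cohort WT it was at 72.1, 63.9 and 48.4 CPM, in RH HET at 53.6, 39.98, 40.7 and 38.8 CPM, and in RH HOMO at 43.0, 33.2 and 39.3 CPM. RH HOMO lay below its wild type, by -0.67 ± 0.15, and above every KO cohort WT library. That difference was -0.45 without RH HOMO 2 and RH cohort WT 1, and -0.24 with all wild types as 1 control group. The KO libraries overlapped RH cohort WT, and their mean lay below the mean of those wild types. The ordered group means were 61.4 ± 12.0 CPM in RH cohort WT, 49.0 ± 5.58 in KO, 43.3 ± 6.93 in RH HET, 38.5 ± 4.95 in RH HOMO and 29.8 ± 2.13 in KO cohort WT, and only the last stood clear of its neighbour.

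Crybg1 (chr10:43950636-44148853, minus strand), the actin-associated protein gene, had the tightest replicates of the 7, with a spread of 0.162 on the log2 scale. It was at 73.1, 80.0 and 75.8 CPM in KO cohort WT and at 54.0, 53.2 and 50.6 CPM in KO, a log2 difference of -0.54 ± 0.13 with no overlap. In the knock-in cohort it was at 52.6, 58.6 and 64.6 CPM in wild type, at 78.1, 68.7, 79.0 and 83.5 CPM in RH HET and at 89.7, 67.4 and 101.9 CPM in RH HOMO. Both mutant groups lay above their wild type and overlapped each other, and RH HOMO differed by 0.56 ± 0.13, by 0.71 without RH HOMO 2, its lowest library, and by 0.36 with all wild types as 1 control group. The group means were 86.3 ± 17.5 CPM in RH HOMO, 77.3 ± 6.25 in RH HET, 76.3 ± 3.44 in KO cohort WT, 58.6 ± 6.01 in RH cohort WT and 52.6 ± 1.78 in KO. RH cohort WT overlapped KO, and the upper 3 groups overlapped one another in turn. Gm10812 and Rtn4ip1 on the other strand share 546 and 122 exon bases with Crybg1, 7.26% and 1.62% of its exon length.

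Levels per kilobase of exon were taken over the merged exons of all annotated transcripts of a gene. That length can exceed the mRNA present, as for Fxyd5 with 4192 exon bases over 14 transcripts, so genes are compared only roughly. On this scale Zfpm1 and Crybg1 were the most abundant of the 7, with group means of 8.49 to 17.5 and of 6.99 to 11.5 CPM per kb. Lrrc32, at 1.86 to 5.96 CPM per kb, came next in every group except RH HOMO, where Fxyd5 was at 3.46 CPM per kb. Ppm1e was the least abundant in KO cohort WT, at 0.603 CPM per kb, and reached 1.89 CPM per kb in KO. In bulk samples such as these, fewer cells that express a gene and less RNA per cell cannot be told apart.

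**Figure D2:**
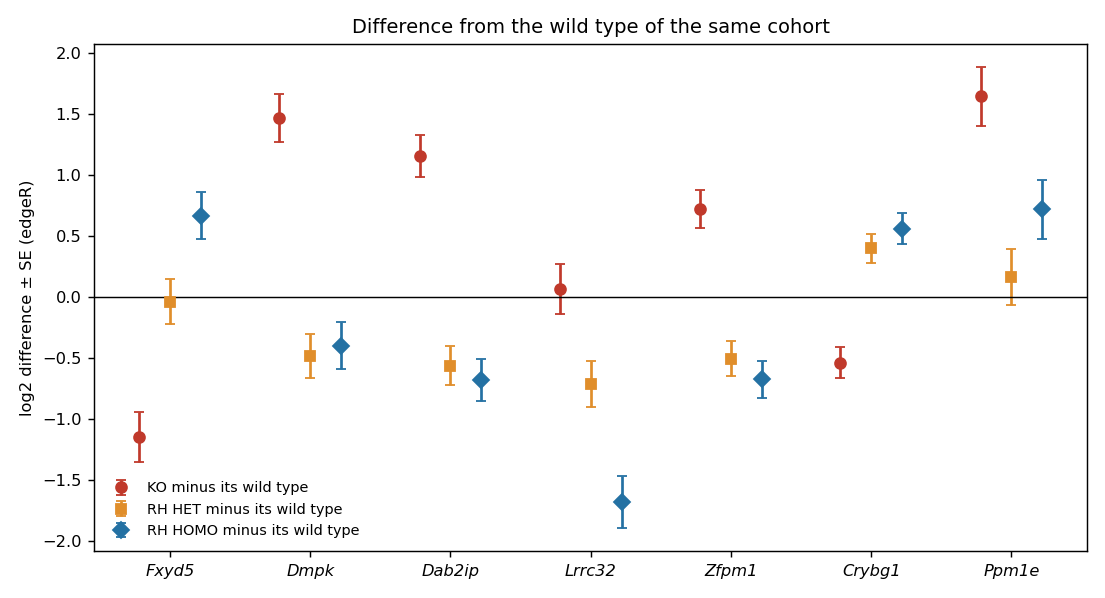
Log2 difference of each mutant from the wild type of its own cohort for the 7 genes, fitted with edgeR, with bars of 1 SE. RH HOMO lies on the opposite side of 0 from KO for Fxyd5, Dmpk, Dab2ip, Zfpm1 and Crybg1, Lrrc32 is near 0 in KO and negative in both RH groups, and both homozygous differences of Ppm1e are positive.

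Put side by side, the homozygous knock-in and the knockout each separated 6 of the 7 genes from their own wild type without overlap, all but Lrrc32 in KO and all but Dmpk in RH HOMO. Over all tested genes, 25.4% did not overlap in KO and 15.4% in RH HOMO. Fxyd5, Dab2ip, Zfpm1 and Crybg1 were free of overlap in both and in opposite directions, which 1.41% of all tested genes were. These shares are a description, since the same libraries led to the choice of the genes. The RH HOMO difference minus the KO difference was -1.86 ± 0.28 on the log2 scale for Dmpk, -1.84 ± 0.25 for Dab2ip, 1.81 ± 0.28 for Fxyd5, -1.74 ± 0.29 for Lrrc32, -1.39 ± 0.22 for Zfpm1, 1.10 ± 0.18 for Crybg1 and -0.92 ± 0.34 for Ppm1e. At an adjusted p under 0.05 this contrast called 40 genes, 0.241% of those tested, 13 higher and 27 lower. Since the 7 genes were picked from this contrast, their place among the 40 is not counted. Of the 40, 21 were also called in KO and 19 in RH HOMO. The knockout comparison called 216 genes (1.3%) and the RH HOMO comparison 261 (1.57%). The count of 40 depended on single libraries, falling to 6 without KO cohort WT 2 and rising to 67 without RH HOMO 2.

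**Figure D3:**
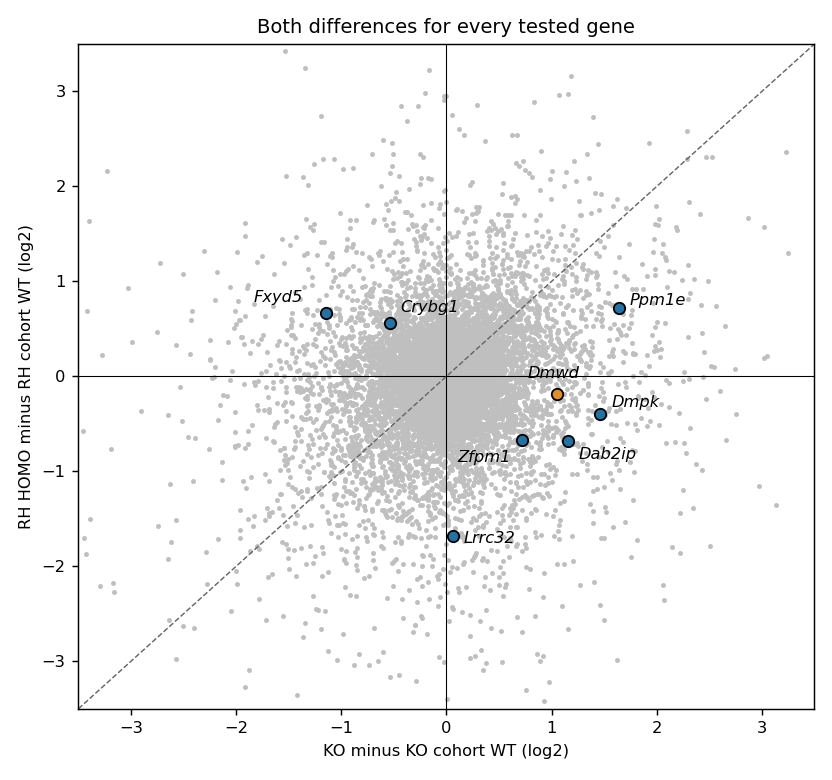
KO difference (horizontal) and RH HOMO difference (vertical), both in log2 units, for the tested genes that fit the axes (grey), with the 7 genes in blue and the neighbouring gene Dmwd in orange. The dashed line marks equal differences. Fxyd5 and Crybg1 lie in the upper left, Dmpk, Dab2ip and Zfpm1 in the lower right, Lrrc32 low on the vertical axis, and Ppm1e in the upper right below the dashed line.

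The heterozygous libraries gave values that the choice of genes had not used, although they are compared with the same 3 wild type libraries as RH HOMO. Wild type values that lay high or low for a gene move both differences the same way. The RH HET differences and counts of the 7 genes below are therefore not independent of the choice. None of the 7 genes passed the test in RH HET (edgeR quasi-likelihood, Benjamini-Hochberg over 16606 genes), where only 3 genes in all were called (0.0181%). At an unadjusted p under 0.05 there were 1192 genes in all (7.18%) and 5 of the 7. Lrrc32 was at -0.71 ± 0.19 (adjusted p = 0.370), Zfpm1 at -0.50 ± 0.14 (0.382), Dab2ip at -0.56 ± 0.16 (0.396), Crybg1 at 0.40 ± 0.12 (0.414) and Dmpk at -0.48 ± 0.18 (0.602). With all 6 wild type libraries as 1 control group these differences were -0.62, -0.07, -0.37, 0.20 and -0.17 in the same order. Lrrc32, Dab2ip and Dmpk lay below every wild type library in all 4 RH HET libraries and Crybg1 above, against 3.52% of all tested genes lower without overlap, 2.97% higher and 6.49% in either direction. Fxyd5 was at -0.04 ± 0.18 (adjusted p = 0.972) and Ppm1e at 0.16 ± 0.23 (0.886). DESeq2 called none of the 7 in RH HET and limma-voom with quality weights called 4, Dab2ip, Lrrc32, Zfpm1 and Crybg1.

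Between the copy numbers of the knock-in allele the genes are described in 2 sets, by whether the libraries of RH HOMO and RH HET overlapped. No test separated the sets. The RH HOMO libraries were used in the choice of the genes, so these values are given without a test. The RH HOMO minus RH HET difference was 0.70 ± 0.18 for Fxyd5, -0.97 ± 0.20 for Lrrc32 and 0.56 ± 0.22 for Ppm1e, and these 3 genes did not overlap between the groups, against 8.06% of all tested genes. For Zfpm1, Crybg1, Dab2ip and Dmpk it was -0.17 ± 0.14, 0.16 ± 0.12, -0.12 ± 0.16 and 0.08 ± 0.18, and the groups overlapped. No gene of all those tested was called between RH HOMO and RH HET by edgeR (1889 genes at an unadjusted p under 0.05), while DESeq2 called 132 and limma-voom 89.

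The 2 wild type groups were not alike. RH cohort WT minus KO cohort WT was 1.05 ± 0.15 for Zfpm1, 0.70 for Dmpk, 0.65 for Fxyd5, 0.42 for Dab2ip, 0.18 for Lrrc32, -0.38 for Crybg1 and -0.38 for Ppm1e. Zfpm1, Dmpk and Fxyd5 were higher in RH cohort WT without overlap and Crybg1 lower. Over all genes 34.2% did not overlap between the wild types, 17.4% higher and 16.8% lower, and 5.06% were called, 527 higher and 313 lower. Each mutant was measured in its own cohort alone, so allele and cohort can be told apart only through these wild types.

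**Figure D4:**
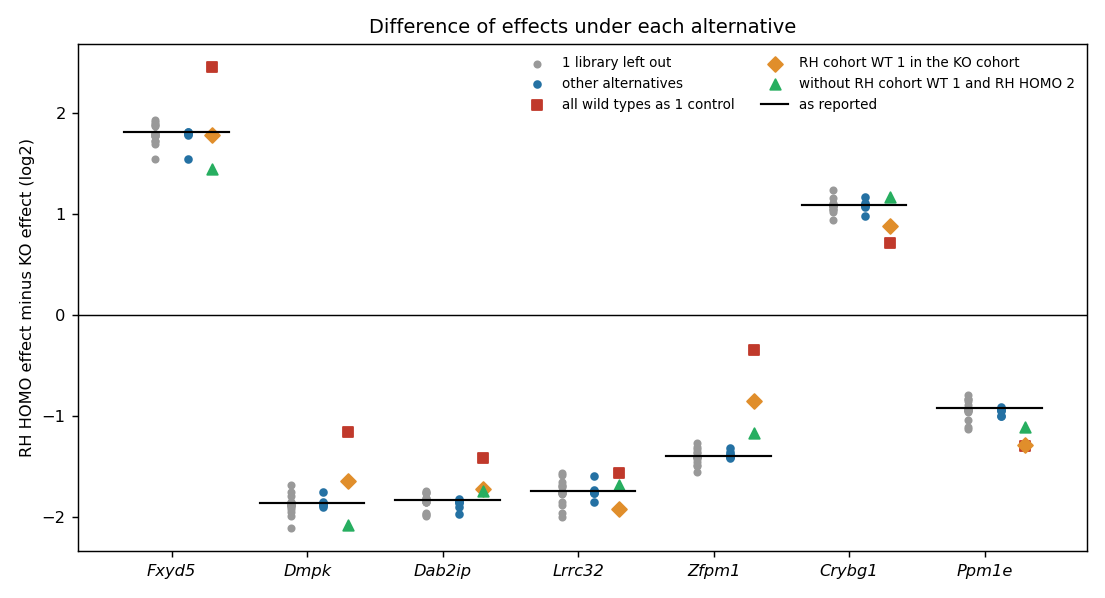
RH HOMO difference minus KO difference (log2) for each gene under every alternative analysis. Black lines give the reported value, grey points the fits without 1 library, blue points other alternatives, and the red squares, orange diamonds and green triangles the choices of controls and libraries. Red squares, with all wild types as 1 control, are RH HOMO minus KO across cohorts, since the controls cancel. No point crosses 0, and the red square of Zfpm1 comes closest at -0.35. The genes were picked on this contrast, so the kept sign is a description only.

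With all 6 wild type libraries as 1 control group, the controls cancel out of the RH HOMO minus KO contrast. It then sets RH HOMO directly against KO of the other cohort, so allele and cohort cannot be told apart in it. In that fit the contrast moved by more than the spread between replicates (1 SD on the log2 scale) for 6 of the 7 genes, all but Lrrc32. It went from -1.39 to -0.35 for Zfpm1, to 2.46 for Fxyd5 and to -1.16 for Dmpk. The knockout difference of Zfpm1, which keeps a control in that fit, went from 0.72 to 0.10. With RH cohort WT 1 placed in the cohort that its batch tag names, the contrast was -0.85 for Zfpm1, 0.89 for Crybg1 and -1.28 for Ppm1e. Without RH cohort WT 1 and RH HOMO 2, it was 1.45 for Fxyd5 and -1.17 for Zfpm1. The sign of the contrast was kept for each of the 7 genes in all of these fits. They use the libraries that led to the choice of the genes, so the kept sign is a description and not a test.

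Genes within 500 kb of each of the 7 were examined for differences of the same kind. Near Dmpk 1 of 35 tested genes was called in KO, near Fxyd5 1 of 31 was called in KO, and near Crybg1 1 of 19 was called in RH HOMO, where 1.3% of all genes tested were called in KO and 1.57% in RH HOMO. Next to Dmpk, 1.07 kb before its start on the same strand, lies Dmwd (chr7:19076227-19082776), which encodes a WD repeat protein. Dmwd was at 25.6, 27.2 and 25.9 CPM in KO cohort WT and at 54.4, 56.1 and 52.5 CPM in KO, and it rose by 1.05 ± 0.10 on the log2 scale (edgeR quasi-likelihood, adjusted p = 5.12e-05, higher in 3 of 3 libraries). It was at 39.9, 43.9 and 36.9 CPM in RH cohort WT, at 30.7, 33.3, 33.1 and 35.1 CPM in RH HET and at 33.0, 39.8 and 33.0 CPM in RH HOMO. As for Dmpk, all 4 RH HET libraries lay below wild type and RH HOMO overlapped it, with a difference of -0.19 ± 0.10 (adjusted p = 0.449, and 0.0182 to 0.824 over the alternatives, the lowest with limma-voom). The RH HOMO minus KO contrast of Dmwd, -1.24 ± 0.14, had the smallest p value of all genes tested (adjusted p = 0.000893), and with RH cohort WT 1 placed in the KO cohort the adjusted p was 0.0566, the highest of a range from 6.57e-15 over the alternatives. Six5, the homeobox gene 0.773 kb past the other end of Dmpk, differed by 0.92 ± 0.32 in KO (edgeR adjusted p = 0.212) and by 0.04 ± 0.32 in RH HOMO. Only limma-voom called the KO difference of Six5 (adjusted p = 0.035), with up to 0.519 over the other alternatives.

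**Figure D5:**
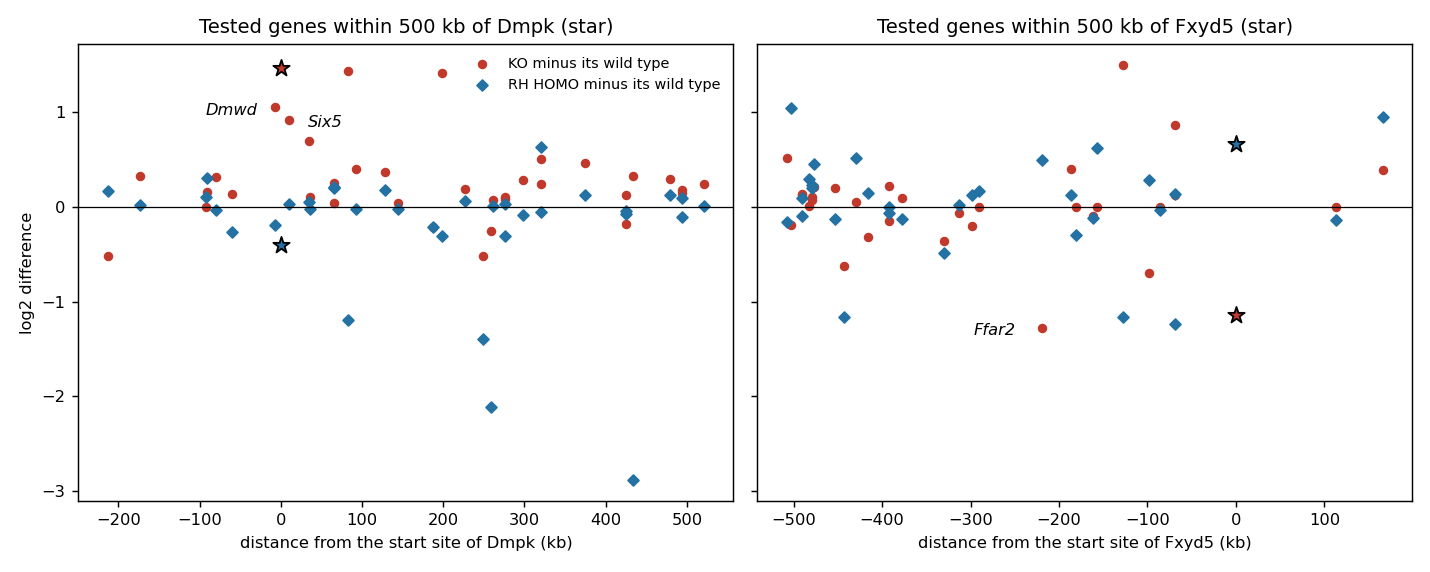
Log2 difference in KO (red circles) and RH HOMO (blue diamonds) of tested genes within 500 kb of Dmpk (left) and Fxyd5 (right), by distance between start sites along the chromosome in kb. Stars are Dmpk and Fxyd5 themselves. Dmwd beside Dmpk is high in KO, Six5 on the other side was not called by edgeR but was by limma-voom, and Ffar2 lies near -1.28 in KO while most other genes lie around 0.

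Fxyd5 had a similar companion further away. Ffar2 (chr7:30818348-30823775, minus strand), a receptor for short-chain fatty acids 209 kb from Fxyd5, had means of 2.41 CPM in KO cohort WT and 0.997 CPM in KO and fell by 1.28 on the log2 scale (edgeR adjusted p = 0.0283). That call was lost, with an adjusted p of 0.141, 0.119, 0.132, 0.0753 or 0.121, when KO cohort WT 1, KO cohort WT 2, KO 1, KO 2 or KO 3 was left out, and over all alternatives it ran from 0.00111 to 0.141. In RH HOMO it was at 4.75 CPM against 3.36 CPM in wild type, a log2 difference of 0.50 (adjusted p = 0.453). Between Fxyd5 and Ffar2, the nearest tested gene on that side of Fxyd5 was Fam187b, at 0.86 ± 0.91 in KO, and Gramd1a on the other side was at 0.00 ± 0.15, neither past the threshold with edgeR. Around Crybg1 the predicted gene 4933404K13Rik fell by 0.73 in RH HOMO (adjusted p = 0.0144), a call lost without RH HOMO 1 (0.0547), RH HOMO 3 (0.0528) or RH cohort WT 2 (0.0812), with a range from 7.82e-05 to 0.241 over all alternatives. With edgeR no gene within 500 kb of Dab2ip, Lrrc32, Zfpm1 or Ppm1e was called in either comparison, out of 12, 8, 25 and 20 tested. At an unadjusted p under 0.05 there were 0, 2, 3 and 1 in KO and 0, 1, 7 and 3 in RH HOMO, where 12.1% and 12.9% of all genes tested had such a p. DESeq2 called 1 near Zfpm1 in each comparison and 1 near Ppm1e in RH HOMO, and limma-voom called 1 or 2 near each of the 4 genes in at least 1 comparison. The nearest tested genes on either side of Ppm1e were Trim37 at 6.22 kb and Rad51c at 17.6 kb. They had KO differences of 0.03 ± 0.09 and -0.03 ± 0.10, while Ppm1e itself was at 1.64. The nearest tested genes that do not overlap the others, Ggta1 and Ndufa8 for Dab2ip, Acer3 and Emsy for Lrrc32, Banp and Zc3h18 for Zfpm1 and Qrsl1 and Atg5 for Crybg1, had differences between -0.18 and 0.25 in both comparisons, with none past the threshold with edgeR. Of the genes that overlap Crybg1, Rtn4ip1 was at -0.13 in KO and 0.09 in RH HOMO and Gm10812 at 0.23 ± 0.81 and 0.85 ± 0.79, also not called.

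The genes whose profile over the 16 libraries was closest to each member were found by the root mean square gap between log2 CPM values, each gene centred on its own mean. The closest to Dmpk was its neighbour Dmwd, with a gap of 0.258, against 0.549 for the spread of Dmpk about its mean, followed by Etv5 (0.303) and Zfp72 (0.323). The closest to Fxyd5 was Ffar2 with 0.275, against a spread of 0.818, then Ifi27l2a (0.337) and the class I gene H2-Q7 (0.378), which has near-identical copies. Etv5, a transcription factor of the ETS family, was also near Dab2ip (0.289, against a spread of 0.535), after the ubiquitin ligase gene Nedd4 (0.271) and the vinculin gene Vcl (0.287). Lrrc32, with a spread of 0.654, was closest to Baiap2l1 (0.234), Fgf11 (0.296) and Sh3bgrl2 (0.300), whose RH HOMO means were likewise the lowest of the 5 groups. Baiap2l1, for instance, was at 10.7 CPM in RH cohort WT, 6.77 in RH HET and 3.89 in RH HOMO. Crybg1, whose spread of 0.292 was the smallest of the 7, was closest to Cd86 (0.123), the costimulatory ligand of T cells, Gpr18 (0.125) and Lhfpl4 (0.131), and Cd86 was at 154.5 CPM in KO cohort WT, 125.5 in KO, 132.2 in RH cohort WT and 173.0 in RH HOMO. Zfpm1, with a spread of 0.373, was nearest to Intu (0.158), Rhob (0.223) and Pgam1 (0.245). Ppm1e, with a spread of 0.757, was nearest to Thbd (0.373), Armcx4 (0.380) and Klf8 (0.383), all of them highest in KO. These gaps were taken over the libraries that led to the choice of the members and carry no test.

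Relatives and partners of the 7 proteins were read from 11 lists with 101 tested genes. With edgeR 0 rose and 0 fell in KO, RH HET, RH HOMO or the RH HOMO minus KO contrast. In the same order, DESeq2 called 0, 0, 4 and 3 of them and limma-voom 4, 3, 11 and 3. At an unadjusted p under 0.05 there were 9 in KO (8.91%, against 12.1% of all genes), 6 in RH HET (5.94% against 7.18%), 14 in RH HOMO (13.9% against 12.9%) and 13 in the contrast (12.9% against 9.53%). The median log2 difference over the 101 genes was 0.02 in KO and -0.02 in RH HOMO. In the sodium pump and FXYD list, the relatives Fxyd1, Fxyd2, Fxyd3, Fxyd6 and Fxyd7 stayed at or below 0.19 CPM in every library. Among the kinases related to Dmpk, Cdc42bpb was at 0.49 in KO (adjusted p = 0.159, and 0.019 to 0.523 over the alternatives) and 0.56 in RH HOMO (0.0872, and 0.0149 to 0.429). Among Ras GTPase activating proteins, Rasal1 was at 0.01 in KO and -0.49 in RH HOMO (adjusted p = 0.0784, and 0.0128 to 0.241 over the alternatives), and Mapk9, a kinase downstream of Dab2ip, was at -0.09 and 0.26. Among the genes that store and activate TGF-beta, Nrros, a protein related to GARP that also holds latent TGF-beta, was at 0.40 in KO and -0.92 in RH HOMO (adjusted p = 0.0619), and was called in RH HOMO in the fits without the count filter (0.00334), with DESeq2 (0.00505), without RH HOMO 1 (0.000559) and with a term for sex (0.0244), with a range from 0.000559 to 0.431 over all alternatives. The receptor gene Tgfbr1 was at -0.76 in RH HOMO (adjusted p = 0.112, and 0.00998 to 0.498 over the alternatives). Both DESeq2 and limma-voom called Cdc42bpb, Rasal1 and Tgfbr1 in RH HOMO.

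The GATA partners of Zfpm1 were nearly absent. Gata1, Gata3 and Gata5, and the second FOG gene Zfpm2, had no count in any of the 16 libraries, and Gata2, Gata4 and Gata6 were at most at 0.0414 CPM. A count of 0 allows up to 3 counts, or 0.0725 CPM in the smallest library, by counting error alone. Of its corepressor partners, Ctbp2 was at most at 0.199 CPM, with no count in 6 libraries, and was not tested. Ctbp1 was at 0.10 in KO and -0.12 in RH HOMO, and Mta1 of the NuRD complex was at 0.32 in KO (adjusted p = 0.132, and 0.0314 with limma-voom) and -0.20 in RH HOMO (0.402). For the remaining members, Crybg3 was at 0.13 and 0.24 (adjusted p = 0.0165 in RH HOMO with limma-voom), the phosphatase gene Pdp1 at -0.24 and -0.57 (adjusted p = 0.146 in RH HOMO, and 0.0313 to 0.509 over the alternatives), and Arhgef6, which encodes the PAK-binding exchange factor alpha-PIX, at -0.34 (adjusted p = 0.148, and 0.00897 to 0.428 over the alternatives) and 0.01. The values without a stated tool are from edgeR.

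Lrrc32 and Zfpm1 are also known from other cells, and markers of those cells were present at low levels. The 6 regulatory T cell markers summed to 9.31 to 16.3 CPM over all libraries, to 9.8 to 12.4 CPM in RH cohort WT and to 12.4 to 16.3 CPM in RH HOMO, where Lrrc32 was lowest. Foxp3, which defines those cells, was between 4.69 and 10.4 CPM, highest in RH HOMO 2. Of the 5 tested regulatory T cell markers 0 were higher in KO and 5 lower, with a median log2 difference of -0.315. In RH HOMO 4 were higher and 1 lower, with a median of 0.262. The 12 T cell markers summed to 78.1 to 161 CPM, of which Lck alone was 76.2 to 160 CPM, and the T cell receptor complex genes Cd3d, Cd3e and Cd3g were at most at 0.314 CPM in any library. In KO, where Fxyd5 and Crybg1 were lower and Dmpk, Dab2ip, Zfpm1 and Ppm1e higher, the T cell markers summed to 78.1 to 82.8 CPM against 98.8 to 112 in wild type, and the 7 dendritic cell markers to 35.3 to 39.1 against 47 to 58 CPM. Both sums were without overlap, as were 25.4% of all tested genes. By gene, 4 of the 6 tested T cell markers were higher in KO and 2 lower, with a median log2 difference of 0.587. Of the 5 tested dendritic cell markers 1 was higher and 4 were lower. Most of the dendritic sum was Flt3, which fell by 0.51 in KO (edgeR adjusted p = 0.0473). The 8 megakaryocyte and platelet markers summed to 1.03 to 2.9 CPM, with 1.68 to 1.78 in KO cohort WT and 1.03 to 1.64 in KO, where Zfpm1 was higher. The 9 erythroid markers summed to 7.83 to 10.6 CPM in KO cohort WT and to 9.19 to 11.9 CPM in KO, where 1 of them, the carbonic anhydrase gene Car2, rose by 1.004 (edgeR adjusted p = 0.0345). Of the 5 tested erythroid markers 2 were higher in KO and 3 lower. In RH HOMO the T cell marker Thy1 rose from a mean of 0.3 to 1.32 CPM (edgeR adjusted p = 0.0282), the follicular B cell marker Gpr183 rose by 0.92 (0.0443) and the germinal centre marker Mef2b fell by 0.57 (0.0143). Of the tested T cell markers 2 were higher in RH HOMO and 4 lower, with a median log2 difference of -0.579. The naive and follicular B cell markers were 6 higher and 4 lower, and the germinal centre markers 3 higher and 9 lower. Flt3, Car2, Thy1, Gpr183 and Mef2b were named after their values were seen. The 12 macrophage markers summed to 17.7 to 23.9 CPM in RH cohort WT and to 20.1 to 32.5 CPM in RH HOMO, where Fxyd5 and Crybg1 were higher. Of the 9 tested macrophage markers 8 were higher in RH HOMO and 1 lower, with a median log2 difference of 0.714. In RH HET 8 were also higher and 1 lower, with a median of 0.7, and edgeR called 0 of them in either comparison. The part of all these markers in the differences of the 7 genes was not tested.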

How the data were processed

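The TruSeq v2 RNA kit, which does not mark strand, was used on total RNA of the sorted cells, per the labels' protocols. The deposited table holds raw read counts, whole numbers without normalisation, of 48593 gene symbols in 16 libraries. The counts were made with CASAVA 1.8, HISAT2 and featureCounts on mm10, which are the names listed in the submitters' processing notes. For HISAT2 and featureCounts the version is not given in the sources used here, nor are the annotation and the strand setting. Positions come from GENCODE M21 on GRCm38, the assembly of mm10, which held 48069 of the symbols. Promoter windows come from RefSeq on GRCm38.p6.

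Groups were read from the titles, since several tags are shifted against their values. Replicate numbers follow accession order and only name a library. Within each group every pair of libraries differed by more than sampling noise (chi-square per degree of freedom 16.4 to 205), and all 16 were counted. The 7 genes, and the gene lists used with them, were chosen with earlier results of these data known.

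The analysis used edgeR 4.0.16 in R 4.3.3: filterByExpr, TMM scaling, a model with 5 group means over 16 libraries (11 residual degrees of freedom), the quasi-likelihood test and Benjamini-Hochberg adjustment over 16606 genes, called at an adjusted p under 0.05. The SE is the log2 difference over the square root of its F statistic. Profiles use log2 CPM with a prior count of 2. The steps were also run on simulated counts with known changes placed in RH HOMO or RH HET only. Those counts held no KO change, no gap between the wild types and no outlying library. They therefore cannot show how the results here depend on single libraries. Named beside the 7 genes were the 3 closest profiles of each, other than antigen receptor segments, predicted genes and pseudogenes, the called genes within 500 kb and the nearest tested gene on each side, and of each partner list the called genes or else the gene with the smallest p. Alternatives were other scaling (DESeq2 size factors), all genes or those with 1 CPM in 3 libraries in place of the count filter, the tests of DESeq2 1.42.0 and of limma-voom (limma 3.58.1) with quality weights, no immunoglobulin or T cell receptor genes, only the libraries compared, other control groups and leaving out each library. A fit without both RH HOMO 2 and RH cohort WT 1 and a fit with a term for sex, from Xist counts, were chosen after seeing the data. Libraries with more than 1000 Xist counts were taken as female. These were 2 of 3 in KO cohort WT and 1 of 3 in KO. In the knock-in cohort they were 1 of 3 in RH cohort WT, 1 of 4 in RH HET and 2 of 3 in RH HOMO. The female share thus fell in KO and rose in RH HOMO.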

Additional observations from a re-analysis of the deposited data

Results flagged for a closer look

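Among the 4 RH HET libraries, 1 stood far from the others for Zfpm1 and for Ppm1e. For Zfpm1, RH HET 1 was at 53.6 CPM while the others lay between 38.8 and 40.7 CPM, a gap of 0.873 of the group's whole range. For Ppm1e, RH HET 2 was at 2.18 CPM while the others lay between 3.81 and 4.03 CPM, a gap of 0.879 of the range. Chance alone puts about 1 in 20 groups past this limit, and 10 genes were examined in these libraries. Without RH HET 1 the RH HET difference of Zfpm1 was -0.62 in place of -0.50, and without RH HET 2 that of Ppm1e was 0.35 in place of 0.16, none of them past the test with edgeR.

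The gene next to Dmpk, Dmwd, differed between the mutants by a direct test of the 2 differences. The RH HOMO difference minus the KO difference was -1.24 on the log2 scale (edgeR quasi-likelihood, adjusted p = 0.000893). It came from a rise of 1.05 in KO, seen in 3 of 3 libraries, and -0.19 in RH HOMO. With RH cohort WT 1 placed in the KO cohort the edgeR adjusted p was 0.0566. The wild types of Dmwd lay apart, at 25.6 to 27.2 CPM in KO cohort WT and 36.9 to 43.9 CPM in RH cohort WT. Dmwd was looked at as the neighbour of Dmpk, which was picked on this contrast in these libraries.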

How the results depend on the processing

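The RH HOMO minus KO contrast kept its direction for each of the 7 genes under every alternative run. Since the genes were picked on this contrast in these libraries, a kept direction was likely from the outset. With all wild types as 1 control the controls cancel, and the contrast is RH HOMO minus KO across cohorts. In that fit it was 2.46 for Fxyd5, -1.16 for Dmpk, -1.42 for Dab2ip, -0.35 for Zfpm1, 0.72 for Crybg1 and -1.30 for Ppm1e. With RH cohort WT 1 placed in the KO cohort it was -0.85 for Zfpm1, 0.89 for Crybg1 and -1.28 for Ppm1e. Without RH cohort WT 1 and RH HOMO 2 it was 1.45 for Fxyd5 and -1.17 for Zfpm1, and limma-voom gave 1.54 for Fxyd5. Leaving out 1 library gave 1.55 to 1.94 for Fxyd5.

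In RH HET, limma-voom called Dab2ip (-0.64, adjusted p = 0.0495), Lrrc32 (-0.78, 0.0285), Zfpm1 (-0.50, 0.0473) and Crybg1 (0.42, 0.0249). Over all alternatives the adjusted p of these genes ran from those values up to 1, 0.966, 1 and 1. The RH HET difference ran from -0.17 to 0.25 for Fxyd5, -0.04 to 0.35 for Ppm1e, -0.58 to -0.17 for Dmpk, -0.67 to -0.37 for Dab2ip, -0.84 to -0.62 for Lrrc32, -0.64 to -0.07 for Zfpm1 and 0.20 to 0.48 for Crybg1.

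Counts of called genes depended on the tool and the libraries, and the cause was not tested. In the order KO, RH HET, RH HOMO, RH HOMO minus RH HET, RH HOMO minus KO contrast and wild type against wild type, DESeq2 called 557, 51, 666, 132, 243 and 2088 genes and limma-voom 944, 244, 1120, 89, 645 and 4357. In that order, only the libraries compared gave 699, 0, 0, 2, 10 and 1854, with 1054 genes in RH HET and 1236 in RH HOMO at an unadjusted p under 0.05. Without the count filter RH HET had 19, RH HOMO minus RH HET 63, the contrast 109 and the wild types 1406. With RH cohort WT 1 in the KO cohort RH HET had 1, RH HOMO 102, the contrast 15 and the wild types 1. With all wild types as 1 control RH HET had 11 and RH HOMO 657. The contrast, in that fit RH HOMO minus KO across cohorts, had 924. Without RH cohort WT 1 and RH HOMO 2, KO had 461, RH HET 6 and RH HOMO minus RH HET 2, and a term for sex gave 7 for the last. Leaving out 1 library gave 38 to 382 in KO, 0 to 7 in RH HET, 115 to 281 in RH HOMO, 0 to 1 for RH HOMO minus RH HET, 6 to 67 for the contrast and 3 to 2688 for the wild types. The lowest counts in KO, the contrast and the wild types came without KO cohort WT 2.

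No paired analysis was possible because the labels carry no replicate number, and those used here follow accession order. With 3 or 4 libraries a group, and a spread between replicates of 0.162 (Crybg1) to 0.327 (Ppm1e) on the log2 scale, small differences could go undetected. Ppm1e and Fxyd5 had 87 to 1213 reads per library.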
